A study of Rattus norvegicus with 12 samples.

Results

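The 10 heat shock chaperone genes described here were Hspa8, Hspa4, Hspb1, Hsph1, Dnaja1, Dnajb1, Hsp90aa1, Hsp90ab1, Hspd1 and Hspe1, chosen by name from the main families of the cytosol and the mitochondrion. A gene was measured where the array held a probe set, a group of short probes for 1 transcript, annotated to its symbol alone. This gave values for 8 of the 10 genes, from 12 probe sets, among 14218 genes with such a probe set in all. Hspa8, the constitutive HSP70 of the cytosol, was on 1 probe set and Hsp90aa1, the inducible HSP90, on 2, each of which carried several symbols, and they were not analysed here. All 8 measured genes were among the 9459 tested, and the filter on low signal took away none of them.

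The arrays measured liver RNA of Sprague-Dawley rats, with 1 array per animal number in the labels and 3 arrays in each of 4 groups. Controls ate standard chow (normal diet). The other rats ate a high-fat diet (HFD), either alone, together with the Chinese herbal preparation Qushi Huayu Decoction (QHD), or together with geniposide and chlorogenic acid (GC), plant compounds given as a mix. QHD was gavaged each day at 0.1 ml/kg for 4 weeks on top of the HFD after 4 weeks of the HFD alone, and GC followed the same schedule at a dose that the labels do not give. The titles give 4 weeks for all groups. How long the HFD group ate its diet in all and how old the rats were is not stated in the labels, and QHD and GC are compared at the doses used.

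Liver identity was checked before the chaperones were compared. The array labelled normal diet 3 stood apart. Its Alb signal, for serum albumin, was log2 10.69, while the other 11 arrays gave 14.52 to 15.06, and its Apoa1 signal, for the main protein of high-density lipoprotein, was 5.08 against 14.39 to 14.69. Its signals of the fat cell genes Adipoq and Plin1 were 14.41 and 14.28, against 2.42 to 5.31 and 1.40 to 6.10. The median over 14 hepatocyte markers was 6.23 on that array and 14.65 to 15.19 on the others. This array went against its tissue label and was left out, which leaves normal diet 2 and 4, so every comparison with the normal diet rests on 2 control livers. Median signal was log2 6.62 to 6.87 on the 11 arrays used. In bulk liver, fewer cells of a type and less RNA per cell cannot be told apart.

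Heat shock chaperones bind unfolded or unstable proteins and use ATP to fold them, hold them or pass them on. In the cytosol, HSP70 works with J proteins, which deliver the client and start ATP hydrolysis, and with HSP110 proteins, which exchange the nucleotide, while HSP90 takes over clients such as kinases and steroid receptors. In the mitochondrion, HSP60 and its lid HSP10 form a folding chamber. Heat shock factor 1 (HSF1) switches on many of these genes by binding repeats of the unit GAA, and its opposite-strand form TTC, in their promoters. The liver makes and secretes large amounts of protein, and a diet rich in fat is known to load hepatocytes with lipid.

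The promoters are shown because HSF1 is the best known regulator that these genes share. RefSeq promoters of rat build GRCr8, from 250 bases before to 50 after each gene's start, were searched on both strands for the paired units GAANNTTC and TTCNNGAA, each of which reads the same on both strands and which may overlap in a longer run. In the lines below, capitals mark these pairs and the runs they form. Hsph1 lies at chr12:10427118-10427417 on the plus strand, Dnajb1 at chr19:41431092-41431391 on the minus strand and Hspe1 at chr9:64084077-64084376 on the plus strand.
Hsph1: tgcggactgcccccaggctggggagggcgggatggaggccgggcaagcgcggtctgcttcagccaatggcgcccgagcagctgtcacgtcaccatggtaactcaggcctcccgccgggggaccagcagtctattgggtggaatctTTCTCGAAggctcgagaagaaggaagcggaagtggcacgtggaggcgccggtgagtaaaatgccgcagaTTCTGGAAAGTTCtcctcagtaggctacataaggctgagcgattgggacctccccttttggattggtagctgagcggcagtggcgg
Dnajb1: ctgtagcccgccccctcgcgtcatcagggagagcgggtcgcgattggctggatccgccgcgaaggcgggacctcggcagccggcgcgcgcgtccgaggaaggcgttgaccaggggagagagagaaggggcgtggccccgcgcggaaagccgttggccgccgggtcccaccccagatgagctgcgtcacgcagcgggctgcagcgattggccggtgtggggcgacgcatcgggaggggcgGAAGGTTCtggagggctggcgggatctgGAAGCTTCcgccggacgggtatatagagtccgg
Hspe1: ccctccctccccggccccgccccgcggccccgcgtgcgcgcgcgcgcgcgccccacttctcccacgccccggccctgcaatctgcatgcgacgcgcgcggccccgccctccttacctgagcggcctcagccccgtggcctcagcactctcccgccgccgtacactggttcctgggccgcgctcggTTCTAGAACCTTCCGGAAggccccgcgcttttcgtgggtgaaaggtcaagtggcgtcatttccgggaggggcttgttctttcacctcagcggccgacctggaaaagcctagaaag

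Of the 8 measured genes, 6 had at least 1 such pair in this window, against 15.9% of all 33469 promoters, and 4 had 3 units in a row, against 0.798% of all promoters. Alone, GAANNTTC was in 8.59% and TTCNNGAA in 8.77% of all promoters. The run of 3 units lay at positions -36 to -24 in Hsph1 and at 10 to 22 in Dnaja1. Hspd1 and Hspe1 are transcribed away from each other and their windows share 211 bases. The longer run of Hspe1 at -65 to -48 is the same stretch, at chr9:64084262-64084279, that lies in the Hspd1 window at -242 to -225, so these are 1 element and not 2. Dnajb1 had separate pairs that start at -11 and 18, and Hspb1 had pairs that start at -129 and -109. No match was found in these windows of Hsp90ab1 and Hspa4. A match of letters is a description, and binding of HSF1 was not measured.

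Hsph1 had a lower mean on the HFD and in both treated groups than on the normal diet. It was the 1 gene of the 8 whose change passed the test, which held for both treated groups. Hsph1 encodes HSP105, the main HSP110 protein, which exchanges nucleotide on HSP70. Its log2 signal was 11.74 and 11.97 on the normal diet, 11.27, 10.89 and 11.47 on the HFD, 11.06, 11.28 and 11.13 with QHD, and 10.97, 10.83 and 10.44 with GC. Both normal livers stood above all 9 livers of rats fed the HFD, and all 3 GC livers stood below all 3 QHD livers. The group means were 11.86 ± 0.17 (SD, n = 2) on the normal diet, 11.21 ± 0.30 (n = 3) on the HFD, 11.16 ± 0.11 (n = 3) with QHD and 10.75 ± 0.28 (n = 3) with GC. In that order of levels, the HFD and QHD groups did not differ beyond their spread.

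**Figure D1:**
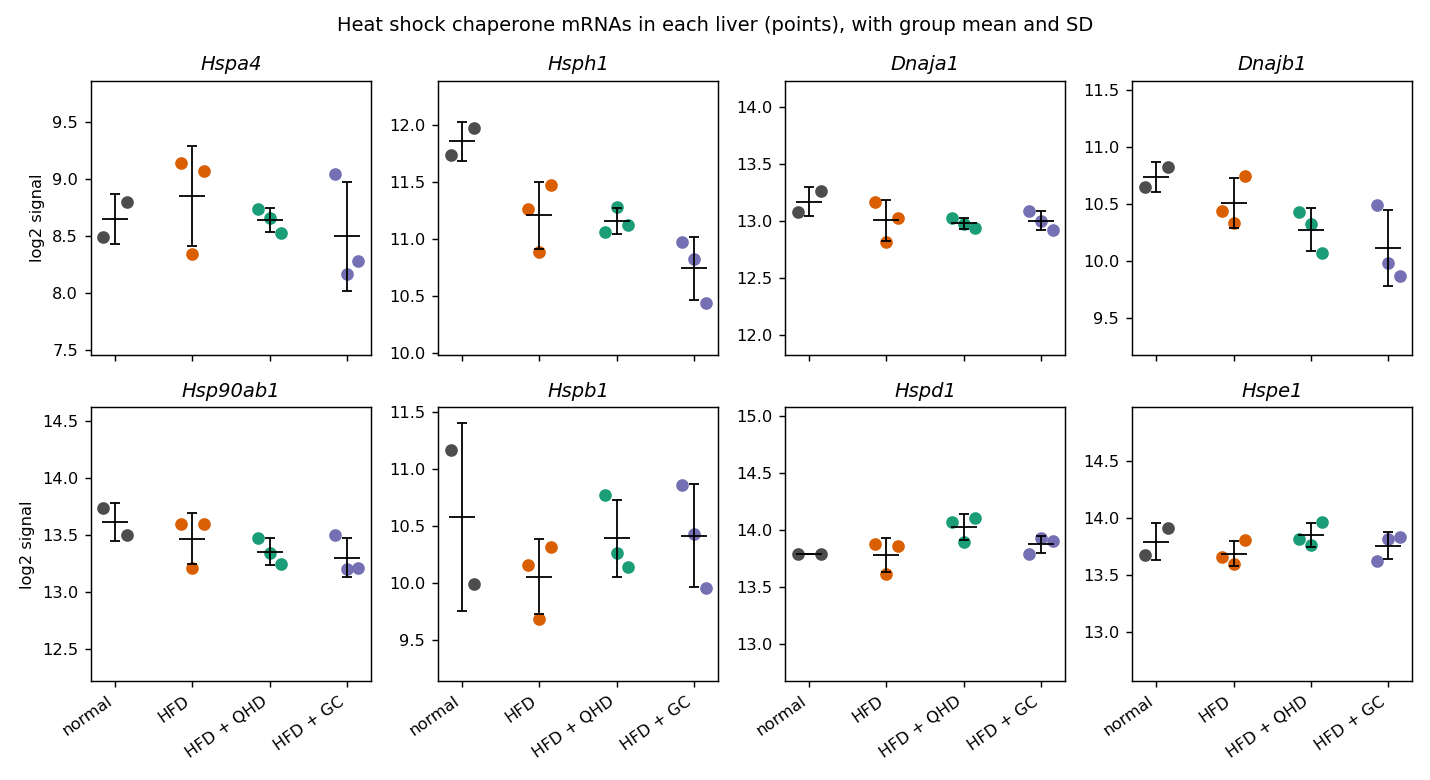
The log2 signal of each measured chaperone gene is plotted for every liver (points), with the group mean and SD (bars), over the normal diet (2 livers), HFD, HFD + QHD and HFD + GC (3 each). All panels span the same number of log2 units, and levels are not comparable between panels. For Hsph1 the normal livers lie above all others, while the Hspd1 points of the QHD group lie above those of the HFD and normal groups.

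GC against the normal diet gave the largest difference among the chaperones. Hsph1 fell by 1.11 ± 0.19 (SE) on the log2 scale, with a 95% interval from -1.52 to -0.70 and an adjusted p of 0.00841, which is 2.16-fold lower. Called genes made up 1 of the 8 chaperones, beside 9.61% of all genes tested. Without normal diet 4 the Hsph1 difference was -0.99 with an adjusted p of 0.0527, and with all 12 arrays it was -0.55 with an adjusted p of 0.573. QHD against the normal diet shares the same control livers. There Hsph1 fell by 0.70 ± 0.19, with an interval from -1.11 to -0.28 and an adjusted p of 0.0476, beside 7.46% of all genes called. That call was lost without normal diet 2, normal diet 4, any 1 of the QHD livers or GC 37, with adjusted p values of 0.0690 to 0.230, and in 6 other settings given further on.

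The HFD against the normal diet, again with the same controls, gave a Hsph1 difference of -0.65 ± 0.19, an interval from -1.06 to -0.23 and an adjusted p of 0.136, which did not pass. No chaperone passed in this comparison, in which 0.529% of all genes did. By unadjusted p under 0.05 there was 1 of the 8 chaperones, Hsph1, and 1364 of all 9459 genes. The chaperone share was thus not above the background. The difference between the HFD and normal livers was therefore not shown for Hsph1 by this test, although the groups did not overlap. The QHD difference from the normal diet, -0.70, was of like size. Passing with QHD and not on the HFD alone thus does not show that these groups differ.

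A second, dimmer probe set of Hsph1 gave the same order of group means. Its log2 signal was 9.77 and 10.04 on the normal diet, 9.49, 8.70 and 9.49 on the HFD, 9.20, 9.20 and 9.11 with QHD, and 9.09, 8.43 and 8.39 with GC. The normal livers were again above all others, and every GC liver was again below every QHD liver. When each of 12246 probe sets was tested by itself, this one fell by 1.27 ± 0.26 with GC against the normal diet, with an adjusted p of 0.0150. With QHD its difference was -0.74 with an adjusted p of 0.116.

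Dnajb1, the J protein HSP40 of the cytosol and a known target of HSF1, had the next largest difference on the probe sets that stood for their genes. Its log2 signal was 10.65 and 10.83 on the normal diet, 10.44, 10.33 and 10.75 on the HFD, 10.43, 10.33 and 10.07 with QHD, and 10.49, 9.98 and 9.86 with GC. The HFD livers overlapped the normal livers, while all QHD and all GC livers were below both normal livers. Against the normal diet, the difference was -0.62 ± 0.19 with GC (interval -1.05 to -0.20, adjusted p = 0.0682), -0.46 ± 0.19 with QHD (adjusted p = 0.164) and -0.23 ± 0.19 on the HFD (adjusted p = 0.667). None of these passed.

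The dimmer Dnajb1 probe set read 9.93 and 9.95 on the normal diet, 9.87, 9.21 and 9.59 on the HFD, 9.57, 9.55 and 9.36 with QHD, and 9.50, 9.09 and 8.85 with GC. All livers of rats fed the HFD were below both normal livers. It fell by 0.79 ± 0.21 with GC against the normal diet, with an adjusted p of 0.0417 over all probe sets, so the probe sets of Dnajb1 lie on either side of the threshold. With the mean of both probe sets the Dnajb1 difference was -0.71 with an adjusted p of 0.0442.

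**Figure D2:**
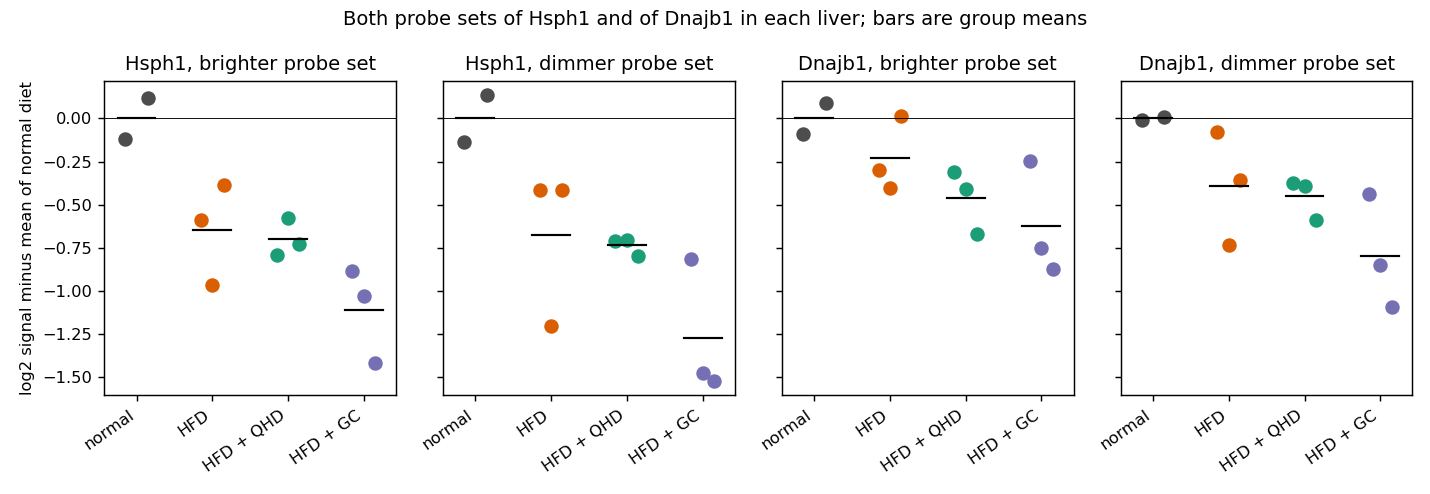
The log2 signal minus the mean of the normal diet is plotted for both probe sets of Hsph1 and of Dnajb1 in each liver (points), with group means (bars). The lowest group mean is that of HFD + GC in all 4 panels.

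The other J protein, Dnaja1, which hands new proteins to HSP70, varied little on its brighter probe set. Its log2 signal was 13.08 and 13.26 on the normal diet, 13.17, 12.82 and 13.03 on the HFD, 13.03, 12.98 and 12.94 with QHD, and 13.09, 13.002 and 12.92 with GC. The QHD livers were below the normal livers by a small margin, and the other groups overlapped. Its differences from the normal diet were -0.16 on the HFD, -0.19 with QHD and -0.17 with GC, and none passed. Its dimmer probe set had group means of 12.04 ± 0.33 (SD, n = 2) on the normal diet, 11.90 ± 0.20 (n = 3) on the HFD, 11.63 ± 0.031 (n = 3) with QHD and 11.81 ± 0.095 (n = 3) with GC. On it the difference between QHD and the normal diet was -0.41 with an adjusted p of 0.128. For QHD against the HFD the dimmer probe set gave -0.28 ± 0.13 (adjusted p = 0.443) and the brighter one -0.027, so the probe sets differ in size here.

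Hsp90ab1, the constitutive HSP90 of the cytosol, read log2 13.74 and 13.50 on the normal diet, 13.60, 13.21 and 13.60 on the HFD, 13.48, 13.34 and 13.25 with QHD, and 13.50, 13.20 and 13.21 with GC. The QHD livers lay just below the normal livers, and the HFD and GC livers overlapped them. The differences from the normal diet were -0.15 ± 0.15 on the HFD, -0.26 ± 0.15 with QHD and -0.32 ± 0.15 with GC, with adjusted p values of 0.724, 0.300 and 0.208. Its dimmer probe set was much more variable, and ran from 11.32 to 12.61 among the HFD livers alone. On this probe set the differences from the normal diet were -0.71 ± 0.46 on the HFD, -0.63 ± 0.46 with QHD and -0.44 ± 0.46 with GC. None of its differences passed.

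Hspa4, another HSP110 protein, and Hspb1, the small heat shock protein HSP27 that holds unfolded clients without ATP, were the most variable of the 8 between livers of 1 group. Hspa4 read log2 8.49 and 8.80 on the normal diet, 9.14, 8.35 and 9.07 on the HFD, 8.74, 8.66 and 8.52 with QHD, and 9.04, 8.17 and 8.28 with GC. Hspb1 read 11.17 and 9.996 on the normal diet, 10.16, 9.69 and 10.32 on the HFD, 10.77, 10.26 and 10.14 with QHD, and 10.86, 10.43 and 9.96 with GC. All groups overlapped for both genes. The pooled SD within groups was 0.36 for Hspa4 and 0.47 for Hspb1, above that of 84.4% and 92.3% of all genes, while the median gene had 0.20. The HFD difference of Hspb1 from the normal diet, -0.52 ± 0.36, thus had an interval from -1.33 to 0.29, and these arrays do not set its direction.

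The mitochondrial pair, Hspd1 for HSP60 and Hspe1 for its lid HSP10, did not pass the test in any of the 6 comparisons. Hspd1 read log2 13.79 and 13.79 on the normal diet, 13.88, 13.61 and 13.86 on the HFD, 14.07, 13.90 and 14.11 with QHD, and 13.79, 13.93 and 13.90 with GC. All QHD livers lay above all HFD and both normal livers, and overlapped the GC livers. The difference between QHD and the HFD was 0.24 ± 0.096, with an interval from 0.031 to 0.45 and an adjusted p of 0.317, and that between QHD and the normal diet was 0.23 ± 0.11, with an adjusted p of 0.202. Neither passed. The HFD and normal means differed by -0.0074, with an interval from -0.24 to 0.23.

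Hspe1 read 13.68 and 13.91 on the normal diet, 13.65, 13.59 and 13.81 on the HFD, 13.82, 13.77 and 13.97 with QHD, and 13.62, 13.81 and 13.84 with GC. Its groups overlapped in every comparison. Its difference between QHD and the HFD was 0.16 ± 0.10, with an interval from -0.060 to 0.39. These were among the steadiest genes, with pooled SDs of 0.11 for Hspd1 and 0.12 for Hspe1, and 11.4% and 16.2% of genes had a smaller SD.

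**Figure D3:**
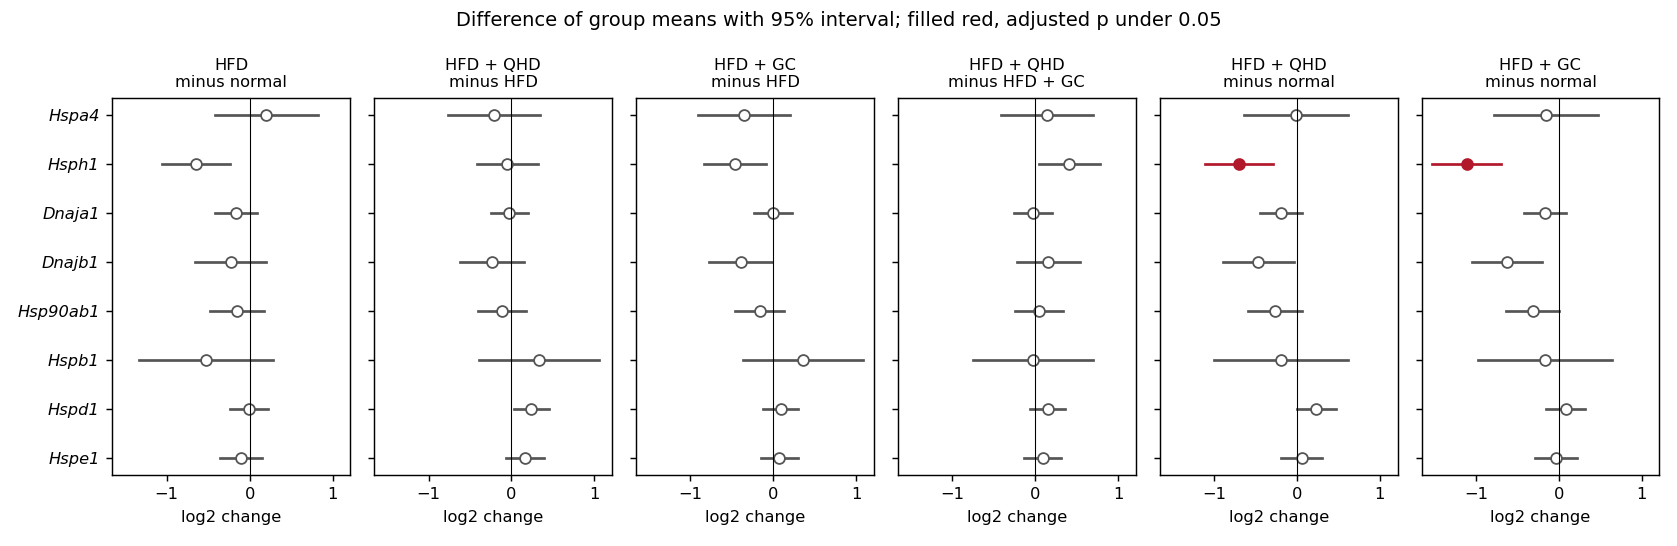
The log2 difference of group means is plotted for each chaperone gene with its 95% interval, in 6 comparisons. Filled red points have an adjusted p under 0.05, which holds for Hsph1 with QHD and with GC against the normal diet, and open points do not pass.

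The effects of both treatments on top of the HFD were tested against the HFD livers, which both comparisons share. With QHD no chaperone passed, beside 0.56% of all genes. By unadjusted p under 0.05 there was 1 of the 8, Hspd1, beside 1205 of all 9459 genes, which is not above the background share. With GC no chaperone passed, beside 0.0951% of all genes. Beside 829 of all 9459 genes, 2 of the 8 chaperones had an unadjusted p under 0.05. These were Hsph1, with a difference of -0.46 ± 0.17 (interval -0.83 to -0.093, adjusted p = 0.474), and Dnajb1, with -0.39 ± 0.17 (interval -0.78 to -0.012, adjusted p = 0.562). When arrays were weighted by their quality in the fit, 3 chaperones passed with GC against the HFD: Hsph1 at -0.60, Dnajb1 at -0.63 and Hspa4 at -0.70. In that fit 6.97% of all genes passed, against 0.0951% without weights. With QHD against the HFD the Hsph1 difference was -0.051, with an interval from -0.42 to 0.32.

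QHD and GC were also set against each other. No chaperone passed, beside 0.275% of all genes, and 1 of the 8, beside 944 of all 9459 genes, had an unadjusted p under 0.05. It was Hsph1, higher with QHD by 0.41 ± 0.17, with an interval from 0.042 to 0.78 and an adjusted p of 0.443. The intervals of the other 7 genes included 0, from -0.060 to 0.36 for Hspd1 up to -0.75 to 0.70 for Hspb1, which does not show that the treatments act alike.

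Counts over the 8 genes leaned to lower levels against the normal diet. On the HFD 7 of 8 had a lower mean, with QHD 6 and with GC 7, and these comparisons share the control livers. The median difference of the 8 was -0.16 on the HFD, -0.19 with QHD and -0.17 with GC, while the medians of all genes were 0.031, 0.054 and 0.052. Hepatocyte markers leaned the same way, with a lower mean for 12 of 14 on the HFD, 14 of 14 with QHD and 14 of 14 with GC, and medians of -0.038, -0.22 and -0.11. Their part in the chaperone values was not tested. Groups did not overlap for 1 chaperone on the HFD, 5 with QHD and 2 with GC, beside 28.3%, 43.6% and 43.9% of all genes tested. For QHD against the HFD this held for 1 of 8 beside 17.5%, for GC against the HFD for 0 beside 13.5%, and for QHD against GC for 1 beside 18.5%.

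The livers of 1 group differed from each other across many of the genes at once. HFD 36 was the lowest liver of its group for 8 of 8 chaperones and was below the mean of the 11 livers for each of them. It was the lowest of all 11 for Hspb1, Dnaja1, Hspd1 and Hspe1. Low signal on HFD 36 was not particular to these genes. Within the HFD group it also had the lowest summed linear signal of the lists of other J proteins and HSP70 exchange factors. The same held for HSP90 partners, mitochondrial chaperones and proteases, and TRiC and prefoldin. For endoplasmic reticulum chaperones, other small heat shock proteins and the heat shock factor list, HFD 87 was lowest. Without HFD 36, the difference of Hspd1 between QHD and the HFD was 0.16 (adjusted p = 0.412) and that of Hsph1 between GC and the HFD was -0.62 (adjusted p = 0.0872). GC 35 was the highest of its group for 6 of 8, and GC 55 was the lowest of all 11 for Hsph1 and Dnajb1. The share of all genes tested that were lowest or highest on these livers was not counted. Cell markers differed along with this within the HFD group. HFD 36 had the highest Cd68 of its group, 11.89 against 11.15 and 11.58, and the highest Ptprc, 11.80 against 10.32 and 11.09. It also had the highest summed linear signal of T and NK cell markers, 3552 against 1819 and 2414, and the lowest of hepatocyte markers, 380266 against 470125 and 429489. Whether these have a part in the chaperone values was not tested.

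**Figure D4:**
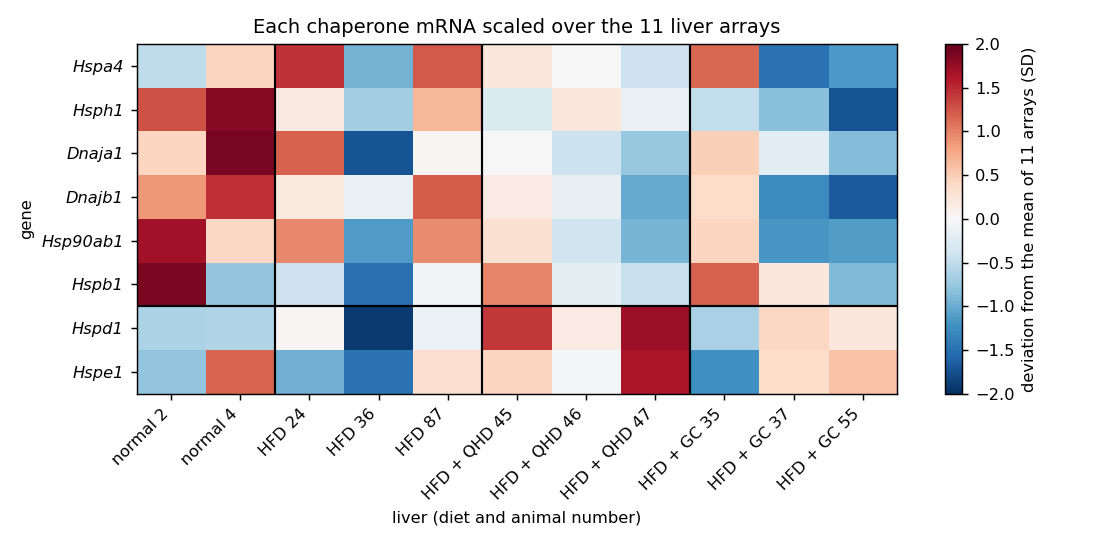
Each row is a chaperone gene scaled to its mean and SD over the 11 livers (colour, in SD units, drawn from -2 to 2), with cytosolic genes above the black line and the mitochondrial pair below it. HFD 36 is below the mean in all 8 rows, and both normal livers are above it for Hsph1, Dnajb1, Dnaja1 and Hsp90ab1.

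The mean of the 8 scaled signals summarised this shared variation. Over the 11 livers, Pearson's r with that mean was 0.839 for Hsp90ab1, 0.825 for Dnaja1, 0.797 for Hsph1 and 0.750 for Dnajb1. It was 0.698 for Hspa4, 0.537 for Hspb1, 0.236 for Hspd1 and 0.214 for Hspe1. Each of these genes is itself 1 part in 8 of the mean. Of the other tested genes, leaving out placeholder symbols, the closest to the mean were Slc25a42 (r = 0.913, Spearman's rho = 0.800), Timm17b (0.911, 0.718), Bltp3b (0.910, 0.918), Nop53 (0.900, 0.827) and Dhrs4 (0.895, 0.882). Slc25a42 is a mitochondrial carrier of coenzyme A, and Timm17b is a subunit of the import channel of the inner mitochondrial membrane. HFD 36 held the lowest signal of the 11 livers for Slc25a42, 8.55 against 9.01 to 9.77 on the others, and these likenesses describe 11 arrays that share the same scaling.

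Other genes of the chaperone machinery were taken from 8 lists with 111 genes, 97 of them tested. None passed on the HFD against the normal diet, in either treatment against the HFD, or between the treatments. With QHD against the normal diet 5 passed, 1 higher and 4 lower, or 5.15% beside 7.46% of all genes. With GC against the normal diet 6 passed, 2 higher and 4 lower, or 6.19% beside 9.61% of all genes. These shares are not above the background. The median difference of the 97 genes was 0.036 with QHD and -0.026 with GC, against 0.054 and 0.052 over all genes.

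Among partners of HSP90, 1 of 13 passed with QHD and 2 of 13 with GC, all lower. Ppid, the cyclophilin 40 that binds HSP90, read 11.76 and 12.04 on the normal diet and 11.39 to 11.58 in the other 9 livers, and fell by 0.43 with QHD (adjusted p = 0.0418) and by 0.44 with GC (adjusted p = 0.0313). Fkbp4, the FKBP52 immunophilin of steroid receptor complexes, read 10.85 and 10.61 on the normal diet and 10.11, 9.55 and 9.92 with GC. It fell by 0.87 ± 0.24 with GC (adjusted p = 0.0453). All 3 GC livers were below both normal livers.

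Among mitochondrial chaperones and proteases 1 of 13 passed with either treatment. Clpx, the unfoldase of the matrix protease ClpXP, read 13.20 and 13.21 on the normal diet, 12.37, 12.60 and 12.80 on the HFD, 12.08, 12.01 and 12.32 with QHD, and 11.46, 11.68 and 12.42 with GC. It fell by 1.06 ± 0.24 with QHD (adjusted p = 0.0271) and by 1.35 ± 0.24 with GC (adjusted p = 0.00957). Hspa9, the mitochondrial HSP70, which was looked up after values were seen, differed by 0.040 with QHD and by -0.18 with GC, and neither passed.

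Among 19 other J proteins 1 passed with either treatment: Dnajb2 fell by 0.61 with QHD and by 0.64 with GC. Of 6 heat shock factors, their partners and further HSP70 genes, Hspa14, an HSP70 bound to ribosomes, rose by 0.65 with QHD and by 0.67 with GC, and Hsf2, a second heat shock factor, fell by 0.44 with QHD. Of 20 chaperones and stress genes of the endoplasmic reticulum, Pdia3, a disulfide isomerase for glycoproteins, rose by 0.40 with GC and none passed with QHD. No gene passed among 13 subunits of TRiC and prefoldin, 9 exchange factors and adaptors of HSP70 and 4 other small heat shock proteins.

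**Figure D5:**
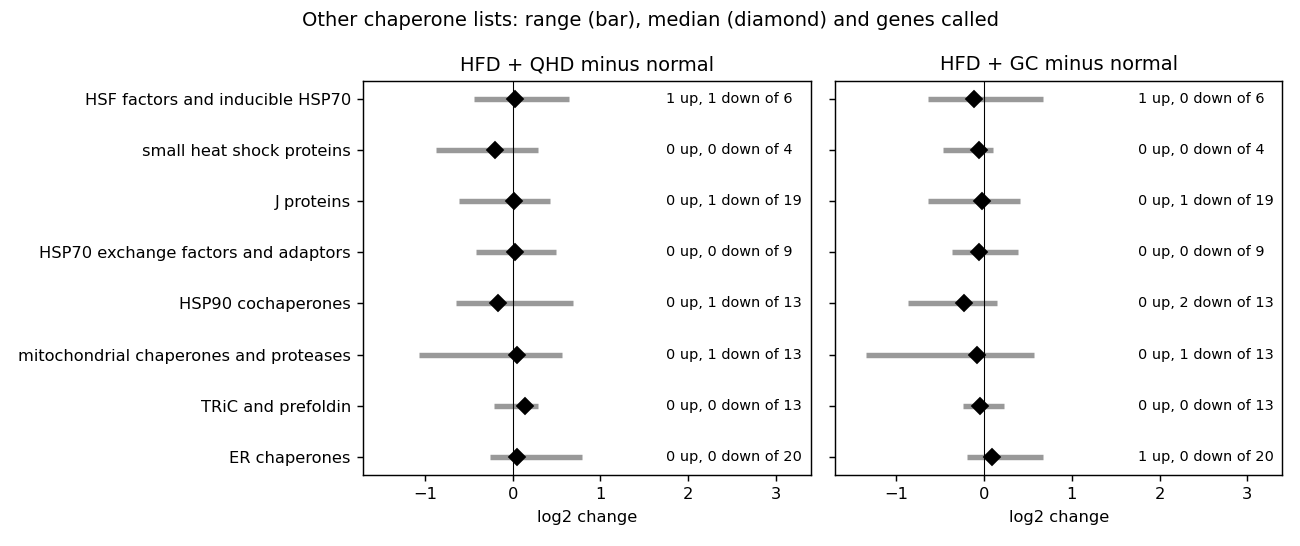
For each of 8 chaperone lists, the range of the genes' log2 differences (bar) and their median (diamond) are plotted for QHD and for GC against the normal diet. The text at the right of each row gives how many of the tested genes passed in each direction.

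Hsf1 and Hspa1a, both genes of the heat shock response, were singled out after values were seen. They do not stand for its inducible arm as a whole. Hsf1 read 8.02 and 7.89 on the normal diet, 8.08, 7.99 and 8.06 on the HFD, 7.95, 7.87 and 7.74 with QHD, and 8.14, 7.54 and 7.55 with GC. Hspa1a, the stress-inducible HSP70, read 6.998 and 7.61, then 7.85, 6.58 and 7.58, then 7.93, 7.76 and 7.36, and then 6.78, 6.53 and 6.67 in the same order of groups. All GC livers were below all QHD livers for Hspa1a, a difference of 1.02 ± 0.32 between QHD and GC with an adjusted p of 0.286. Its GC mean of 6.661 lay at the signal filter of 6.664, so the size of this difference is uncertain. Neither gene passed in any of the 6 comparisons, and Hspa1a has a near-identical copy in the genome, so its probes may read both. Other genes were also looked up after values were seen. With GC against the normal diet, Stip1 differed by -0.56, Bag3 by -0.37, Chordc1 by -0.32 and Ahsa1 by -0.23. In the same order of genes, the differences were -0.37, -0.20, -0.33 and -0.35 on the HFD. With QHD they were -0.39, -0.42, -0.15 and -0.17, so lower means were not particular to GC. Also with GC, Dnajb4 differed by -0.11, Trap1 by -0.081, Hsbp1 by -0.026, Cryab by 0.10 and Hspa5 by 0.048. None of these genes passed.

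Other signals moved with the normal diet and the treatments, and their part in the Hsph1 result was not tested. With GC against the normal diet 6 of 15 clock genes passed, 3 higher and 3 lower. Dbp, a transcription factor with a strong daily rhythm in liver, read 5.37 and 6.12 on the normal diet and 11.33, 11.10 and 8.53 with GC. With QHD 3 of 15 passed. Npas2, a partner of the core clock, read 9.84 and 9.58 on the normal diet and 3.26, 4.24 and 5.13 with QHD. Dbp on the normal diet and Npas2 with QHD lay below the signal filter of 6.66, so the sizes of these differences are not given. Several chaperone genes are known to follow the time of day in liver, and the labels do not give the hour at which tissue was taken. Of 17 immediate early genes, Egr1 fell by 1.67 with GC. Egr2 passed with both treatments, and read 6.00 and 5.92 on the normal diet, below that filter, 8.27, 8.39 and 8.14 with QHD, and 8.86, 7.59 and 7.72 with GC.

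Of 13 macrophage and Kupffer cell markers 5 rose with GC and 3 with QHD against the normal diet, and none fell, beside 9.61% and 7.46% of all genes that passed. Their summed linear signal was 41317 to 47993 on the normal diet, 43727 to 74118 on the HFD, 56175 to 66103 with QHD and 67018 to 69974 with GC. With GC, 2 of 4 erythroid and neutrophil markers (Alas2 and Hbb) and 1 of 8 T and NK cell markers (Lck) rose, and with QHD Alas2 and 1 of 5 adipocyte markers (Fabp4) rose. None of the stellate, endothelial, bile duct, B and plasma cell markers passed against the normal diet. None of 14 hepatocyte markers passed in any comparison, and their summed signal was 411345 to 462833 on the normal diet, 380266 to 470125 on the HFD, 344681 to 394757 with QHD and 388769 to 413018 with GC. The hepatocyte sums of the HFD and normal livers overlapped, and those of QHD were below those of the normal diet. The part of these other cell markers was not tested.

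The p-values in the authors' deposited table, which names no test, were under 0.05 for 0 of the 12 chaperone probe sets in each of its 5 comparisons. The smallest in the authors' deposited table were 0.0925 for QHD against the HFD and 0.119 for GC against the HFD. Those that involve the normal diet use all 3 arrays with that label, and their smallest values in the authors' deposited table were 0.258 for the HFD, 0.211 for QHD and 0.142 for GC.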

How the data were processed

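The authors deposited log2 signals of arrays hybridised with cRNA from 6 µg of RNA. Per the submitters' processing notes, they used MAS5 and Affymetrix Expression Console; no version is stated. On a linear scale each array had a mean signal of 500.2 to 500.3 after 2% was trimmed at each end. The unadjusted p-values in the deposited table were used only as the authors' values. Of 31099 probe sets, 20832 carried 1 symbol, 436 several and 9831 none, in GEO's platform annotation. The brightest single-symbol probe set over 11 arrays stood for its gene, and genes with a mean log2 signal above 6.66, the median of all probe sets, were tested.

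All 9459 genes were fitted with 1 mean per group in limma 3.58.1 in R 4.3.3 (trend and robust options, 7 residual degrees of freedom). The SE and 95% interval are limma's moderated ones. Adjusted p values are Benjamini-Hochberg values over all genes of a comparison, and a gene passed, was called, rose or fell when this was under 0.05. Labels give separate animal numbers and no batch. The number of arrays limits the precision.

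The members and the gene lists were chosen with earlier results of these data known. Named were all members, up to 4 passing genes of each process list per comparison by smallest p, and the 5 genes most like the members' mean, without placeholder symbols; any other gene is said to be chosen after its values were seen or defines the tissue or a cell type. Alternatives tried were all 12 arrays, other filters, quantile normalization, 32 added to linear signals, other use of probe sets, other limma options, array weights, only the groups compared, and each array left out. Figures were drawn with matplotlib 3.10.9.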

Additional observations from a re-analysis of the deposited data

Results flagged for a closer look

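On the array labelled normal diet 3, which entered no comparison, Hspb1 stood at log2 12.82, above all 11 liver arrays (9.69 to 11.17), and it is given here because that array lies outside the comparisons. Hspb1 was the 1 chaperone above all 11. On the same array 5 of the 8 chaperones lay below all 11: Hsph1 at 10.18, Dnaja1 at 11.73, Hsp90ab1 at 12.38, Hspd1 at 12.42 and Hspe1 at 12.75. Of all genes tested, 32.3% lay below and 36.9% above all 11 on that array. Hspa4 at 8.43 and Dnajb1 at 10.26 lay within the range of the others.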

How the results depend on the processing

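No paired analysis was possible because the animal numbers in the labels are not shared between groups. Chaperones called with QHD against the normal diet went from 1 to 0 with all 12 arrays (Hsph1 adjusted p = 0.878), no filter on low signal (0.0597), quantile normalization (0.0593), the mean of a gene's probe sets (0.0741), every probe set tested by itself (0.0516) and no trend and robust options (0.0686), and from 0 to 1 as single arrays were left out. With GC against the normal diet the count was 0 with all 12 arrays, and 2 (Hsph1 and Dnajb1) with the mean of a gene's probe sets and with array weights. It was 0 to 2 with single arrays left out: 0 without normal diet 4, and 2 without GC 35 (Dnajb1 -0.81, adjusted p = 0.0353). With GC against the HFD it was 3 with array weights. The shares of all genes called were 6.97% for GC against the HFD and 15.4% for GC against the normal diet with array weights, and for the latter comparison 8.74% with the mean of probe sets, 4.22% without GC 35 and 0.685% with all 12 arrays. The other counts of called chaperones stayed at 0 wherever they were computed. No cause of these shifts was tested.

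Signs turned for differences that passed in no setting. Not all of these were small: against the normal diet they included Hsp90ab1 with GC (-0.32) and Hspb1 on the HFD (-0.52). With all 12 arrays the turned differences on the HFD against the normal diet were Hspd1 0.45, Hspe1 0.24, Hsp90ab1 0.26 and Dnaja1 0.32. With QHD they were Hsp90ab1 0.15, Dnaja1 0.29 and Hspa4 0.064, and with GC Hspe1 0.31, Hsp90ab1 0.096 and Dnaja1 0.31. With quantile normalization Hspd1 was 0.046 on the HFD and Hspe1 0.066 with GC against the normal diet, Dnaja1 was 0.053 for GC against the HFD, and Hsp90ab1 was -0.016 for QHD against GC. With array weights Hspd1 was 0.040 on the HFD and Hspe1 0.0024 with GC against the normal diet. With the mean of probe sets Hsp90ab1 was 0.053 for GC against the HFD and -0.072 for QHD against GC.

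Leaving out single arrays turned 24 signs. Against the normal diet the ranges were, on the HFD, Hspd1 -0.055 to 0.077, Hspe1 -0.22 to 0.010 and Hspb1 -1.11 to 0.061; with QHD, Hspe1 -0.058 to 0.17, Hspb1 -0.77 to 0.40 and Hspa4 -0.16 to 0.15; and with GC, Hspe1 -0.15 to 0.081, Hspb1 -0.75 to 0.42 and Hspa4 -0.42 to 0.013. For QHD against the HFD they were Dnaja1 -0.12 to 0.056 and Hsph1 -0.21 to 0.081, and for GC against the HFD Dnaja1 -0.097 to 0.079. For QHD against GC they were Hsp90ab1 -0.0081 to 0.15, Dnaja1 -0.065 to 0.018, Hspb1 -0.25 to 0.20 and Hspa4 -0.021 to 0.42. Hsph1 stayed lower with either treatment against the normal diet in every setting run. A filter at a mean log2 signal of 9 drops Hspa4. Normal diet groups of 2 arrays limit what can be detected.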
